A study of Mus musculus with 6 samples.

Results

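The 84 genes described here encode the proteins of the cytosolic ribosome and a few of their duplicated relatives. They were chosen by name, as every gene whose symbol is Rpl or Rps followed by a protein number, with the P stalk genes (Rplp0, Rplp1, Rplp2) and Rpsa, out of 23361 genes in the deposited table. By the genes' names, 43 belong to the large subunit, 31 to the small subunit and 3 to the P stalk, and 7 are paralogues (Rpl10l, Rpl39l, Rpl3l, Rpl7l1, Rpl22l1, Rps27l and Rps4y2). No measured value was used to choose them. Rpl10, Rpl36a, Rpl39 and Rps4x lie on the X chromosome.

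Whole testes of 6 C57BL/6J mice of about 120 days were sequenced. All 6 mice, controls included, were homozygous for Ret V805A, a form of the GDNF receptor kinase that can be blocked by the drug 1NaPP1. The 3 control mice received vehicle (saline, cremophor and ethanol, 10 microlitres per gram of body weight) daily for 9 days and the 3 inhibitor mice received 1NaPP1-HCl in the same vehicle and volume. Testes were taken on day 14, after 5 days of recovery, and polyA+ libraries read as single 81-base reads held between 23144295 and 43127890 fragments assigned to genes. The labels name 1 mouse per library, so the spread within a group is a spread between mice.

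The ribosome reads messenger RNA in its small subunit and joins amino acids in its large subunit, and nearly every cell needs the full set of its proteins. Many ribosomal protein messages begin with a pyrimidine tract (the TOP motif), through which their translation is regulated together. In male germ cells the X chromosome is silenced during meiosis, and several X-linked ribosomal protein genes have autosomal relatives, made by retrotransposition, that are expressed there: Rpl10l for Rpl10, Rpl39l for Rpl39 and Rpl36al for Rpl36a. The same retrotransposition has left mammalian genomes full of processed pseudogenes of ribosomal protein genes, so a short read can belong to more than 1 locus.

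Whether a read can be placed bears on every level given here, so stretches of 81 bases, the length of 1 read, are shown for a gene beside its copy or paralogue. They come from the GENCODE M21 transcripts (GRCm38), lie within the parent gene's coding sequence, run 5′ to 3′ on the transcript, and were taken as the aligned stretch with the fewest differences, with the differing bases in capitals. The first pair is Rpl34 (spliced, minus strand, chr3:130729135-130729293) and Rpl34-ps1 (plus strand, chr6:71124610-71124690), which are identical over the whole read:
Rpl34: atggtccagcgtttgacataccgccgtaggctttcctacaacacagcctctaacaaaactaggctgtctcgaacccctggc
Rpl34-ps1: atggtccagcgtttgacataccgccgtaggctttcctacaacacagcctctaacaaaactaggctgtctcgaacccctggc
The transcript used for Rpl34 has 1232 bases, and only the 99 coding stretches in its last part were compared. Of the 274 stretches of 81 bases in Rpl34-ps1, 156 occur in transcripts of Rpl34, and how far the others differ was not measured. Another stretch of the same pair (spliced, chr3:130729084-130729242, and chr6:71124661-71124741), taken as that with the most differences among the 99 compared, differs in 1 base:
Rpl34: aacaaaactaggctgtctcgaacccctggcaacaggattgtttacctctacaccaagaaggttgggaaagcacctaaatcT
Rpl34-ps1: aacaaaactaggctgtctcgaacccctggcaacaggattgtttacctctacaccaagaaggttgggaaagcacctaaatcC

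The X-linked genes and their paralogues were further apart than that. The closest coding stretch of Rpl10 (spliced, plus strand, chrX:74272811-74272971) and Rpl10l (minus strand, chr12:66283809-66283889) differed in 5 bases:
Rpl10: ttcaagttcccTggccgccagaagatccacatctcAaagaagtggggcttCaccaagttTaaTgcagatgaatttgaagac
Rpl10l: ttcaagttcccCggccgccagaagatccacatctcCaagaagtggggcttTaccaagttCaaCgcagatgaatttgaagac
That of Rpl39 (minus strand, chrX:37083987-37084067) and Rpl39l (plus strand, chr16:10174334-10174414) differed in 8 bases:
Rpl39: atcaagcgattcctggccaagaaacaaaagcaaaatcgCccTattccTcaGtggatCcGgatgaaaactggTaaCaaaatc
Rpl39l: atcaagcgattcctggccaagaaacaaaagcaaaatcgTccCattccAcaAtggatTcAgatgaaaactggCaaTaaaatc
That of Rps4x (minus strand, chrX:102185039-102185119) and Rps4y2 (named Rps4l in GENCODE, plus strand, chr6:148355412-148355492) differed in 6 bases:
Rps4x: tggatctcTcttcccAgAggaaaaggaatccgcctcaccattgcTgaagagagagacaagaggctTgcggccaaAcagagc
Rps4y2: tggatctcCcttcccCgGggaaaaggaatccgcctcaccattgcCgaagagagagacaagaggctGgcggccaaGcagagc
No read-length window was shared within any of the 8 pairs of paralogue and parent. Their best local alignments, gaps not counted, were 72.1% (Rpl7l1 and Rpl7, 183 bases) to 87.7% (Rpl36al and Rpl36a, 332 bases) identical. These alignments cover only part of the transcripts.

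Against all other annotated transcripts, by contrast, most members were not unique. Of the 84 genes, 79 shared at least 1 of their 81-base windows with a transcript of another gene, and 31 shared over 50% of them. The median share was 38.1% of windows. Windows were counted on 1 transcript per gene, so a long transcript can lower the share. Rpl34 shared 4.43% of its 1152 windows, counted on a transcript of 1232 bases. In that transcript the first coding stretch shown above begins only at base 1054. Counted from the copy, 56.9% of the windows of Rpl34-ps1 occurred in transcripts of Rpl34. Of the fragments of Rpl34 and Rpl34-ps1 together, 25.8%, 11.2% and 12.6% were booked to Rpl34 in the controls. The low share of Rpl34 belongs to the transcript counted, and does not show that its reads were placed without loss. Among the X-linked parents, 84.8% of the windows of Rpl10 and 84.4% of those of Rpl36a occurred elsewhere, against 48.5% for Rps4x and 5.45% for Rpl39. Rpl10l, Rpl39l, Rpl3l and Rps3 were among the members that shared none. This search covered annotated transcripts only, including overlapping neighbours, and the sources used here do not say how the authors' counting placed reads with several hits.

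Ribosomal protein messages were among the most abundant in the testis. Levels between genes are compared in FPKM, the authors' count of fragments scaled by library size and by a length for each gene. The length implied by fragments and FPKM was 93.1 bases for Rpl38, whose annotated transcript has 457, and 252 bases for Rpl41. The order of the genes depends on that length. In fragments scaled to library size alone (CPM), Rplp0 averaged 728, Rpl41 389 and Rpl38 80.4. The median member stood at 248 FPKM over the 6 libraries, and 69 of the 84 (82.1%) were above 100 FPKM, a level reached by 5.49% of all genes in the table. The highest was Rpl41, which encodes the shortest ribosomal protein, with 1509, 1430 and 1406 FPKM in the controls and 1700, 1800 and 1402 FPKM in the inhibitor mice. Next came Rps20 (mean 958 FPKM), a protein of the small subunit head, and Rpl38 (863 FPKM), a large subunit protein. Of the P stalk genes, which form the flexible arm that recruits elongation factors, Rplp1 averaged 749 FPKM, Rplp0 617 FPKM and Rplp2 363 FPKM. Rpsa, which encodes a small subunit protein also known as the laminin receptor, averaged 99.1 FPKM. The medians of the subunits were 241 FPKM for the large and 320 FPKM for the small one, and their ranges overlapped.

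**Figure D1:**
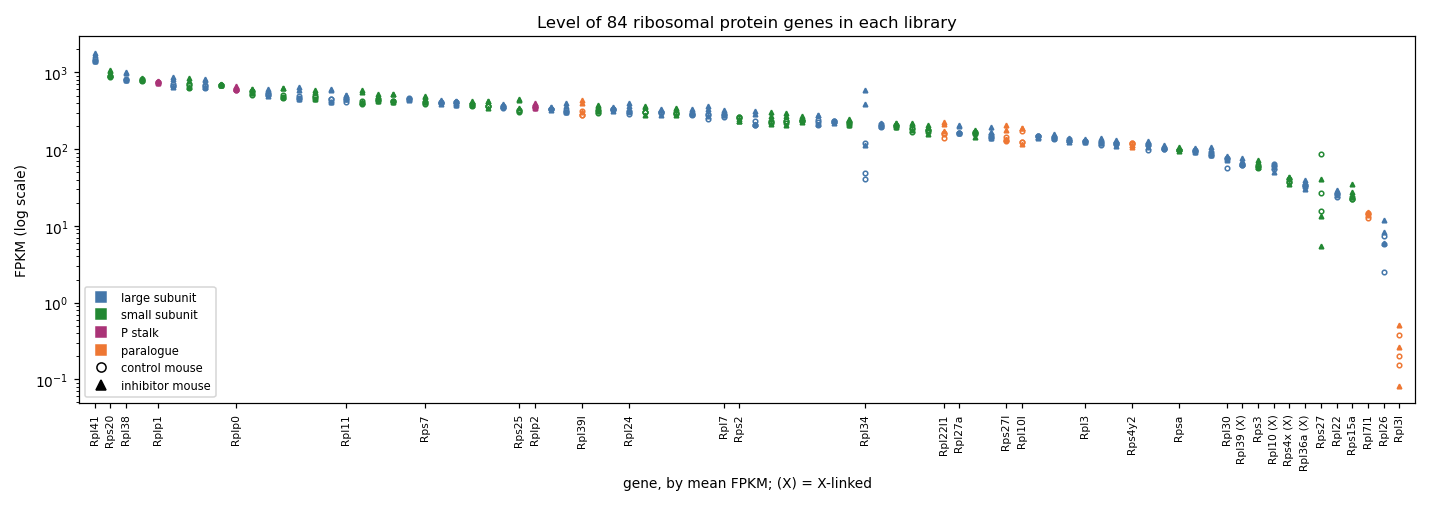
FPKM (log scale) of all 84 ribosomal protein genes in order of their mean, with open circles for the 3 control mice, triangles for the 3 inhibitor mice (X) after X-linked genes, and names only for genes described by name. Most genes sit above 100 FPKM with their 6 libraries close together, the 4 X-linked genes lie near the low end, and Rpl34, Rps27 and Rpl26 are spread widely.

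The X-linked genes were near the bottom of that order. Their median was 49.3 FPKM, against 305 FPKM for the 73 autosomal members that are not paralogues. Among these 77 genes Rpl39 ranked 69, Rpl10 71, Rps4x 72 and Rpl36a 73, and 5 autosomal genes were below Rpl39. These 5 were Rps3, Rps27, Rpl22, Rps15a and Rpl26. For Rps27 and Rpl26 the deposited value leaves out fragments booked to a copy, as described below. The others were scaled by long implied lengths, of 1705 (Rps3), 1869 (Rpl22) and 5015 bases (Rps15a), against 196 bases for Rpl39. In CPM they averaged 107, 49.6 and 129, against 13.1 for Rpl39. Rpl39, which encodes a protein of the peptide exit tunnel, had 61.7, 64.6 and 61.8 FPKM in the controls and 71.0, 77.0 and 64.7 FPKM in the inhibitor mice. Rpl10, which encodes a protein needed to join the subunits, had 55.9, 63.5 and 60.8 FPKM in the controls and 59.4, 64.7 and 50.8 FPKM in the inhibitor mice. Rps4x and Rpl36a were lower still, at 38.2 ± 2.06 and 33.4 ± 0.807 FPKM in the controls (SD, n = 3). These levels depend on how reads shared with pseudogenes were booked, which was not tested, since 84.8% of the windows of Rpl10 and 84.4% of those of Rpl36a occur in other annotated transcripts.

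The autosomal relatives of these genes were more abundant than the X-linked genes in all 6 libraries. All ratios of paralogue to parent given here are ratios of FPKM, and their size depends on the lengths by which FPKM is scaled. In CPM the control means were 180 for Rpl39l and 12.3 for Rpl39, and 117 for Rpl10l and 36.3 for Rpl10. Rpl39l had 313, 283 and 282 FPKM in the controls and 401, 433 and 301 FPKM in the inhibitor mice, which was 4.67 ± 0.367 times Rpl39 in the controls and 5.31 ± 0.567 times in the inhibitor mice (SD, n = 3 each). Rpl10l had 172, 123 and 126 FPKM in the controls and 191, 187 and 116 FPKM in the inhibitor mice, a ratio to Rpl10 of 2.36 ± 0.624 and 2.80 ± 0.470 (SD, n = 3 each). For Rpl10l the scatter within each group, with control 1 near the upper and inhibitor 3 at the lower end, was larger than the difference between the groups. Rpl36al, whose name falls outside the rule and which is given only for comparison, was 6.75 ± 0.246 times Rpl36a in the controls and 6.99 ± 0.451 times in the inhibitor mice (SD, n = 3 each).

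Rps4y2 is annotated in GENCODE as a transcribed processed pseudogene on chromosome 6, and was nonetheless at 121, 118 and 120 FPKM in the controls and 112, 107 and 115 FPKM in the inhibitor mice. The lowest control was above the highest inhibitor mouse, but the difference was small (log2 fold change -0.11 ± 0.05 SE, adjusted p = 0.296 in edgeR's quasi-likelihood test). It stood 3.14 ± 0.195 times above Rps4x in the controls and 2.77 ± 0.398 times in the inhibitor mice (SD, n = 3 each).

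The paralogues of autosomal genes did not share 1 pattern. Rpl22l1 is a paralogue of the RNA-binding protein Rpl22. Its FPKM was 6.03 ± 0.575 times that of Rpl22 in controls and 7.36 ± 0.428 times in inhibitor mice (SD, n = 3 each). This ratio rests on the implied lengths, which were 280 bases for Rpl22l1 and 1869 bases for Rpl22. In CPM the control means were 43.0 for Rpl22l1 and 47.7 for Rpl22, and the inhibitor means were 57.1 and 51.6. Rps27l, a paralogue of Rps27 known as a target of p53, had 145, 132 and 127 FPKM in the controls and 179, 209 and 136 FPKM in the inhibitor mice, and its ratio to Rps27 is not interpretable here because most fragments of Rps27 were booked to a copy. Rpl7l1, which takes part in making the large subunit, had 0.050 ± 0.0050 times the level of Rpl7 in the controls (SD, n = 3). Rpl3l, which replaces Rpl3 in striated muscle, was close to the limit of the libraries, with 6, 8 and 12 fragments in control mice, against 9, 14 and 2 in inhibitor mice, and it alone of the 84 had too few counts to be tested.

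The ratio of paralogue to parent was compared between the groups for the 8 pairs with an exact two-sided permutation test of the log2 ratios, in which 3 mice against 3 cannot give a p below 0.1. Only Rpl22l1 over Rpl22 had groups that did not overlap, with ratios of 6.19, 5.39 and 6.50 in control mice, against 7.45, 7.74 and 6.90 in inhibitor mice. Its difference was 0.29 on the log2 scale (exact p = 0.1, adjusted over the 8 pairs 0.48). The log2 fold changes in edgeR were 0.41 for Rpl22l1 and 0.11 for Rpl22. They were 0.28 and 0.07 with the length and GC trend removed, and 0.20 and 0.10 with the implied length trend removed (both described below). The part of length in this ratio was not tested further. In the other 7 pairs the groups overlapped, with differences from -0.19 (Rps4y2 over Rps4x, exact p = 0.2) to 0.26 (Rpl10l over Rpl10, exact p = 0.3) outside the pair with Rps27. None of the 8 adjusted p-values was below 0.48.

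**Figure D2:**
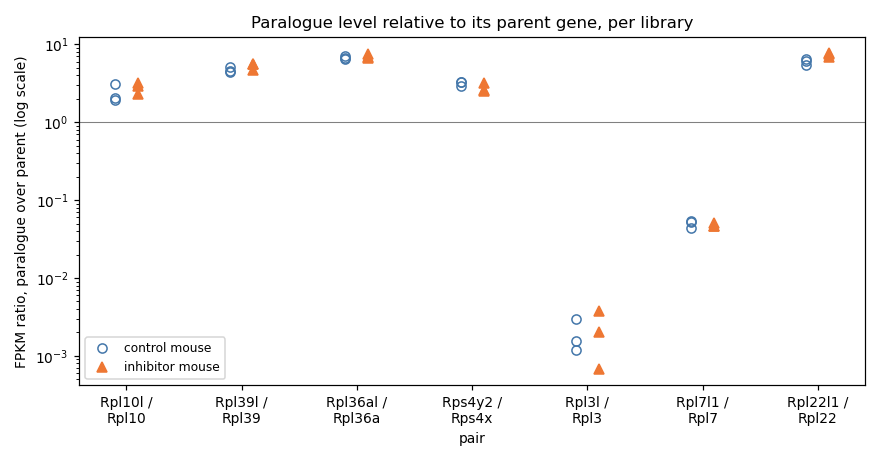
Ratio of the FPKM of each paralogue to that of its parent gene (log scale), with open circles for control mice and triangles for inhibitor mice; Rps27l over Rps27 is left out because most fragments of Rps27 were booked to a copy. Rpl10l, Rpl39l, Rpl36al, Rps4y2 and Rpl22l1 lie above their parents in all 6 libraries, Rpl3l and Rpl7l1 below, and only for Rpl22l1 do the groups not overlap.

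For 4 members the deposited value depended on how fragments were divided between the gene and a near-identical copy. Rpl34, Rpl26, Rps27 and Rpl30 were the only members with fractional fragments, and in every library their fragments summed to a whole number, within 0.005 fragments, with those of 1 other locus. The partner of Rpl34 was Rpl34-ps1, that of Rpl26 was Gm15772 on chromosome 5 and that of Rpl30 was Gm12191 on chromosome 11, which GENCODE annotates as processed pseudogenes. The partner of Rps27 was Gm9846 (Rps27rt in GENCODE) on chromosome 9, annotated as protein coding. Of the copies' own 81-base windows, 56.9% (Rpl34-ps1), 54.7% (Gm15772), 69.8% (Gm12191) and 90.1% (Gm9846) occur in transcripts of the parent gene.

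Rpl34 had the highest fold change of all members, and most of it was absent from the sum with its copy. Rpl34 had 119, 40.3 and 49.3 FPKM in the controls and 390, 599 and 115 FPKM in the inhibitor mice, a log2 fold change of 2.26 (SE 0.77, adjusted p = 0.252 in edgeR). Of the fragments of Rpl34 and Rpl34-ps1 together, 25.8%, 11.2% and 12.6% were booked to Rpl34 in control mice, against 67.4%, 88.4% and 26.6% in inhibitor mice. Summed over both loci, the level was 102, 97.1 and 96.6 CPM (fragments of a gene scaled to library size) in the controls and 122, 142 and 96.5 CPM in the inhibitor mice, a log2 fold change of 0.28 (SE 0.13, adjusted p = 0.327 in edgeR). The sum was highest in inhibitor 1 and inhibitor 2 and lowest in inhibitor 3. Rpl34 is named here after its values were seen.

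Rpl26 was the lowest of the members other than paralogues, with 0.385% to 1.53% of the fragments of the pair booked to it and the rest to Gm15772. The sum of both loci ran from 214 to 229 CPM in the controls, and was 272, 279 and 218 CPM in the inhibitor mice (log2 fold change 0.21 ± 0.09 SE, edgeR adjusted p = 0.255). For Rps27 the share was 2.37%, 10.1% and 3.15% in control mice, against 1.64%, 1.00% and 4.29% in inhibitor mice. Alone, Rps27 had a log2 fold change of -0.97 (edgeR adjusted p = 0.606), and summed with its copy one of 0.24 (SE 0.06, adjusted p = 0.092 in edgeR), with 138, 138 and 149 CPM in the controls and 166, 177 and 159 CPM in the inhibitor mice. The sums of the 2 groups did not overlap, and the sign of the difference was the opposite of that for the gene alone. Rpl30 received a steadier 12.0% to 17.1% of its pair, and the sum with Gm12191 differed by 0.05 on the log2 scale (edgeR adjusted p = 0.665).

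**Figure D3:**
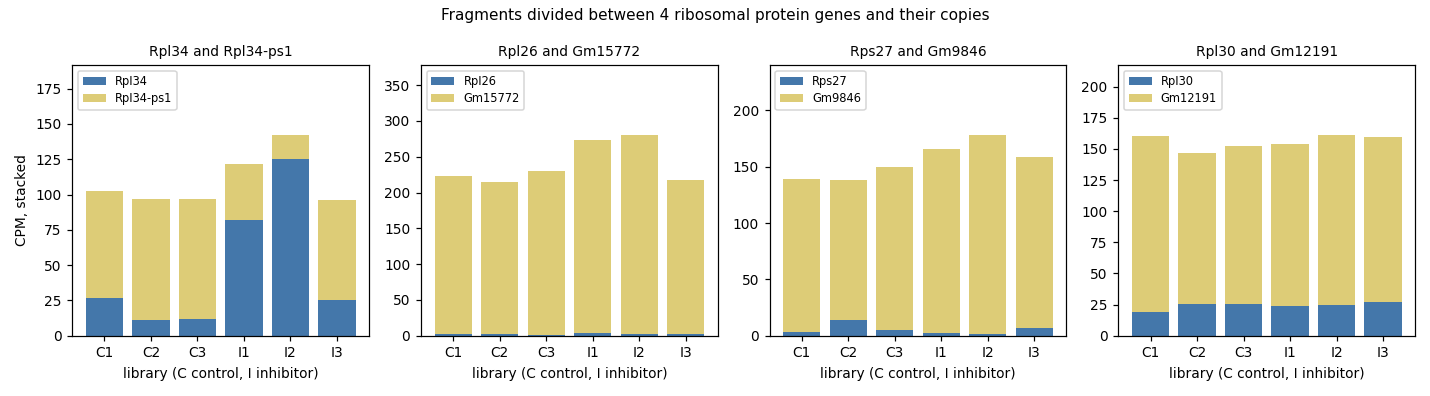
CPM of Rpl34, Rpl26, Rps27 and Rpl30 (blue) stacked on those of the copy that shares their fragments (yellow), in control (C1 to C3) and inhibitor (I1 to I3) libraries. The blue part of Rpl34 runs from 11.2% to 88.4% of its bar while the bars differ far less, and Rpl26 and Rps27 are almost wholly booked to their copies.

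Before the groups are compared, inhibitor 3 is described separately, since it did not resemble inhibitor 1 and inhibitor 2 in these genes. This was seen in the members' own values and is no ground for leaving the library out. Members took 1.23%, 1.20% and 1.19% of all fragments in the controls, 1.34% and 1.40% in inhibitor 1 and inhibitor 2, and 1.16% in inhibitor 3. Of the 83 members tested, 69 in inhibitor 1 and 75 in inhibitor 2 were above all 3 controls, but 11 in inhibitor 3. Over all 16658 genes tested these shares were 33.3%, 34.1% and 29.6%. In inhibitor 3, 38 members (45.8%) were below all 3 controls, against 5 (6.02%) each in inhibitor 1 and inhibitor 2. Over all genes tested the shares below were 34.6%, 35.5% and 30.8% in inhibitor 1, inhibitor 2 and inhibitor 3. The median member deviated from the control mean by 0.17 and 0.23 (log2) in inhibitor 1 and inhibitor 2, and by -0.04 in inhibitor 3. The controls themselves lay at 0.02, -0.01 and 0.00, so that the coefficient of variation of the median member was 3.37% among controls and 10.8% among inhibitor mice.

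**Figure D4:**
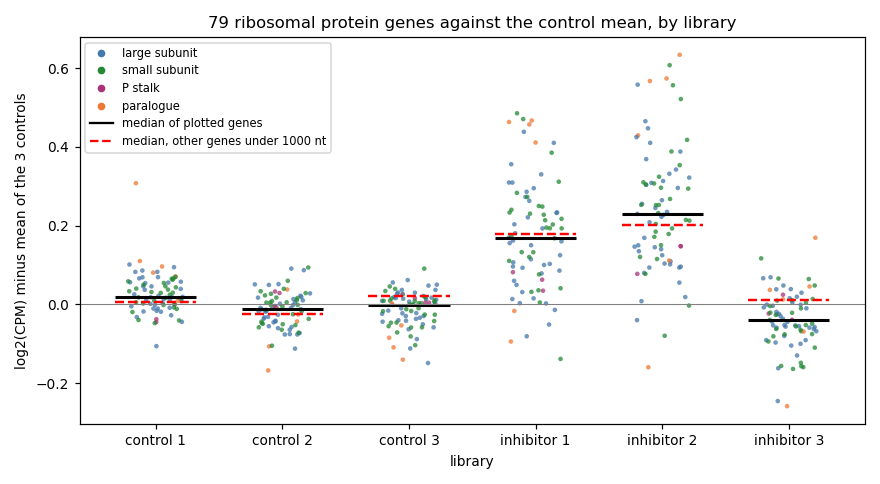
Each point is 1 of 79 ribosomal protein genes (those with whole fragment counts that were tested), as log2 CPM minus the mean of the 3 controls, by library. The black bar is their median and the dashed line the median of 2313 other genes with an implied length under 1000 bases. Inhibitor 1 and inhibitor 2 lie above the controls, inhibitor 3 does not, and the dashed line follows the same steps.

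With all 6 libraries, most ribosomal protein genes had slightly higher values in the inhibitor mice, but none passed the test. Of 83 tested, 76 had a log2 fold change above 0, against 49.0% of all genes tested, and the median was 0.12, against 0.00 for all genes. By edgeR's quasi-likelihood test with Benjamini-Hochberg adjustment over the 16658 genes, 0 members were called higher and 0 lower at an adjusted p under 0.05, where 0.06% of all genes were called higher and 0.096% lower. At an unadjusted p under 0.05, 18 members were higher and 1 was lower, where 9.43% of all genes were higher and 8.48% lower. DESeq2 called 10 members higher and 0 lower, where it called 3.39% and 1.57% of the 10844 genes to which it gave an adjusted p, and limma-voom called 0. Both the 18 and the 10 include Rpl34, most of whose difference was absent from the sum with its copy. Of the 79 members with whole fragments, 17 were higher and 1 lower at an unadjusted p under 0.05. With the copies added to their gene, 20 of 83 were higher and 1 lower. In 7 members (8.43%) the inhibitor mice were all above the controls, where this held for 11.0% of all genes. In 3 members (3.61%) they were all below them, where this held for 11.9% of all genes.

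The direction was shared by the subunits. In the large subunit 39 of 43 genes were above 0 (median 0.12), in the small subunit 29 of 31 (median 0.13), and in the P stalk 3 of 3 (median 0.06). The 6 paralogues tested had a median of 0.30, and the 4 X-linked genes one of 0.07. The paralogue median was 0.15 without control 2 and 0.51 without inhibitor 3, where Rpl3l was tested as well, and 0.18 without inhibitor 2. With the length and GC trend removed the medians were 0.10 for the paralogues and -0.09 for the X-linked genes, of which 0 of 4 were then above 0. The smallest p belonged to Rpl22l1, with 162, 141 and 156 FPKM in the controls and 211, 227 and 172 FPKM in the inhibitor mice. Its log2 fold change was 0.41 with an SE of 0.10 (edgeR adjusted p = 0.0994), and even inhibitor 3 was above every control. Rpl39l followed the other pattern: its log2 fold change was 0.37 with an SE of 0.14 (edgeR adjusted p = 0.251), and inhibitor 3, at 301 FPKM, lay within the range of the controls.

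In the small subunit Rps25, a protein of the subunit head used by some viral and cellular internal ribosome entry sites, had 324, 315 and 307 FPKM in the controls and 437, 453 and 343 FPKM in the inhibitor mice. Its groups did not overlap, and its log2 fold change was 0.38 with an SE of 0.10 (edgeR adjusted p = 0.117). Rps20 had 902, 875 and 904 FPKM in the controls and 1079, 1050 and 939 FPKM in the inhibitor mice (log2 fold change 0.19 ± 0.05 SE, edgeR adjusted p = 0.118). Rps15a had 23.8, 22.1 and 22.4 FPKM in the controls and 27.7, 34.7 and 23.9 FPKM in the inhibitor mice. Of these, inhibitor 3 was just above the highest control. The FPKM of Rps15a was scaled by an implied length of 5015 bases, and its mean over all libraries was 129 CPM. Rps7, a regulator of Mdm2, had a log2 fold change of 0.18 (SE 0.06, adjusted p = 0.187 in edgeR) and overlapping groups.

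Rps2 went the other way. It had 259, 265 and 257 FPKM in the controls and 236, 246 and 234 FPKM in the inhibitor mice, so that every inhibitor mouse, inhibitor 3 included, was below every control. Its log2 fold change was -0.13 with an SE of 0.05 (edgeR adjusted p = 0.178), and it was the only member below 0 at an unadjusted p under 0.05. Of its 81-base windows, 63.0% occur in transcripts of other genes.

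In the large subunit Rpl24, a protein at the bridge to the small subunit, had 317, 286 and 305 FPKM in the controls and 363, 402 and 318 FPKM in the inhibitor mice (log2 fold change 0.25 ± 0.08 SE, edgeR adjusted p = 0.148). Inhibitor 3 was above the highest control by less than the controls differed among themselves. Rpl11, the large subunit protein that binds Mdm2 when ribosome assembly fails, had a log2 fold change of 0.16 ± 0.06 SE, and Rpl27a one of 0.22 ± 0.08 SE, with inhibitor 3 inside the CPM range of the controls in both. The 3 controls of Rpl27a lay at 162, 163 and 163 FPKM, and inhibitor 1 and inhibitor 2 at 202 and 207 FPKM. Rpl10 (-0.05 ± 0.09 SE), Rpl3 (0.02 ± 0.05 SE), Rplp1 (0.03 ± 0.05 SE) and Rpsa (0.04 ± 0.05 SE) were near 0.

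Without inhibitor 3 the calls were different. With inhibitor 1 and inhibitor 2 against the 3 controls, an alternative planned for each library, edgeR called 43 of 84 members higher and 0 lower at an adjusted p under 0.05, where 8.71% of all genes were called higher and 5.54% lower. The median log2 fold change of the members was then 0.21. The calls comprised 18 large subunit, 21 small subunit, 1 P stalk (Rplp0) and 3 paralogue genes. The highest among them were Rps27l, Rpl22l1 and Rps24, each at 0.52 on the log2 scale, followed by Rpl39l at 0.51. Rps24, a small subunit protein, is named here after its values were seen. No X-linked member was called. Leaving out any 1 of the other 5 libraries left 0 members called, with medians from 0.06 (without inhibitor 2) to 0.13.

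Short genes of other kinds differed between the groups by about as much as the ribosomal protein genes did, and most members are short. The length implied by the deposited fragments and FPKM was 517 bases for the median member against 2458 bases for the median gene, and 69 members were under 1000 bases. The 2313 tested genes of other kinds under 1000 bases had a median log2 fold change of 0.13, and 14262 longer ones one of -0.02. By library the short genes deviated from the control mean by 0.18, 0.20 and 0.01 in inhibitor 1, inhibitor 2 and inhibitor 3, close to the members' 0.17, 0.23 and -0.04. Once the dependence of each library on GC content and transcript length was removed, 49 of 83 members were above 0, where 51.3% of all genes were, and their median was 0.03. After removal of the trend on the implied length, an alternative chosen after the data were seen, 34 of 83 were above 0, where 51.0% of all genes were, and the median was -0.02. The part of transcript length in the result was not tested beyond these corrections.

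**Figure D5:**
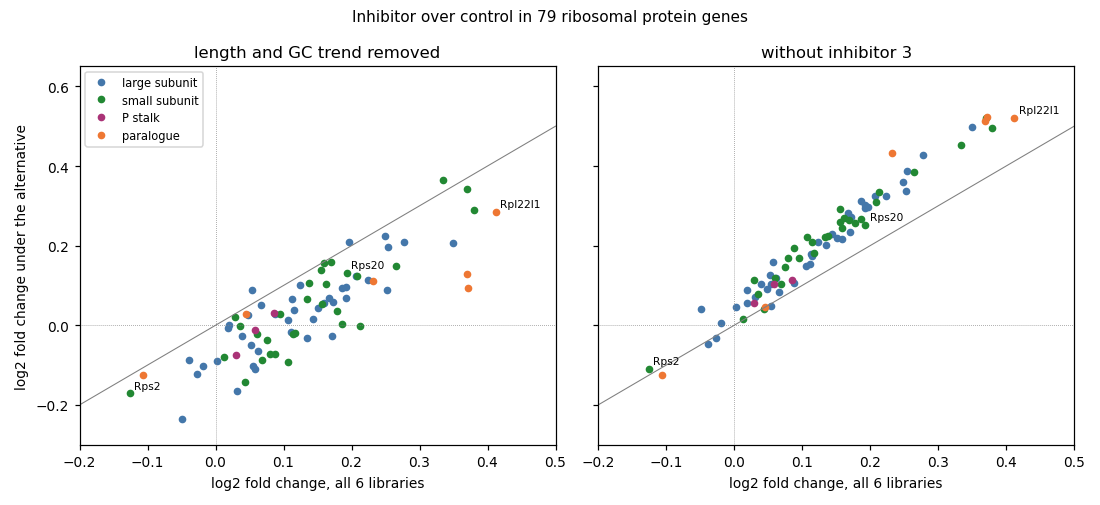
Log2 fold change (inhibitor over control) of 79 ribosomal protein genes with all 6 libraries (x axis) against that with the length and GC trend removed (left) and that without inhibitor 3 (right); the line marks equal values. On the left most points fall below the line and spread around 0, on the right most lie above it.

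Individual members kept different amounts of their difference after that correction. Rpl22l1 was at 0.28 with the length and GC trend removed, Rps25 at 0.29 and Rps15a at 0.36, against 0.41, 0.38 and 0.33 before. Rpl39l was at 0.13 and Rps27l at 0.09, against 0.37 for each before. Rps2 was at -0.17 and Rps4y2 at -0.13. The amounts depended on the length used, since annotated and implied lengths differ (1908 and 280 bases for Rpl22l1, 3706 and 306 for Rps20). The annotated length was that of the longest GENCODE transcript of any kind, while the longest protein-coding one of Rpl22l1 has 552 bases. The length and GC correction thus treated some short members as long genes. With the implied length trend removed instead, Rpl22l1 was at 0.20 and Rps25 at 0.22, lower than with the length and GC trend removed. Rps15a at 0.41, Rpl39l at 0.23 and Rps27l at 0.15 were higher. Rps2 was then at -0.23 and Rps4y2 at -0.21. After the length and GC correction edgeR called 0 members, where 0.036% of all genes were called higher and 0.042% lower. At an unadjusted p under 0.05, 5 members were then higher and 7 lower, where 7.95% and 5.4% of all genes were.

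Summed levels of cell type markers in the same libraries stand beside these results. Markers of undifferentiated spermatogonia, the cells that GDNF maintains, summed to 74.4 to 77.9 CPM in the controls and 51.7 to 57.7 CPM in the inhibitor mice. Of 9 tested, 4 were called lower and 0 higher, with none of the 10 at 0. Of all genes, 0.096% were called lower and 0.06% higher. Markers of differentiating spermatogonia summed to 77.2 to 80.9 CPM in the controls and 61.8 to 66.3 CPM in the inhibitor mice. Of these 8, 0 were above 0 and 1 was called lower. Markers of elongating spermatids summed to 15250 to 16026 CPM in the controls and to 18336, 18389 and 16537 CPM in inhibitor 1, inhibitor 2 and inhibitor 3, with 7 of 8 above 0 and 0 called. Sertoli cell markers summed to 1269 to 1304 CPM in the controls and to 1201, 1210 and 1443 CPM in inhibitor 1, inhibitor 2 and inhibitor 3, with 2 of 8 above 0. In the elongating spermatid list inhibitor 3 was the lowest inhibitor library, as in the members, but it was above every control. Markers of round spermatids summed to 1351 to 1457 CPM in the controls and to 1573, 1547 and 1380 CPM in inhibitor 1, inhibitor 2 and inhibitor 3, with 6 of 8 above 0. Markers of early meiosis summed to 536.7 to 600.3 CPM in the controls and to 616.8, 660.3 and 625.5 CPM in the same order, with 7 of 8 above 0. The part of these cell types in the result was not tested. In whole testis, fewer cells of a type and less RNA per cell cannot be told apart.

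Other parts of the translation machinery were compared from lists of their own. The 4 ribosome parts whose names fall outside the rule (among them Fau, which encodes a ribosomal protein fused to a ubiquitin-like sequence, Gnb2l1, the scaffold Rack1, and Rpl36al) were all above 0, with a median of 0.09 and 0 called. Fau had 410, 410 and 421 FPKM in the controls and 504, 469 and 397 FPKM in the inhibitor mice, again with inhibitor 3 the lowest. Of 19 elongation factors and other messages with a TOP motif, 9 were above 0 (median -0.01) and 0 were called. Among these Eif3e, a subunit of an initiation factor, had a log2 fold change of 0.29 (SE 0.07, adjusted p = 0.0928 in edgeR), Tpt1, a classical TOP message, one of 0.24 ± 0.06 SE, and Eef1a1, the main elongation factor, one of 0.13 ± 0.04 SE, each with groups that did not overlap.

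Genes for making ribosomes lay on both sides of 0. Of 47 ribosome biogenesis genes, 17 were above 0, the median was -0.03 and 0 were called. Utp20, a large factor in small subunit assembly, had 50.9, 48.4 and 53.8 CPM in the controls and 39.2, 40.0 and 41.4 CPM in the inhibitor mice (log2 fold change -0.34 ± 0.06 SE, edgeR adjusted p = 0.0583). Ebna1bp2 (0.25 ± 0.07 SE) and Wdr12 (0.18 ± 0.05 SE), both large subunit assembly factors, were higher without overlap. Of the 76 mitochondrial ribosomal protein genes, which serve a separate ribosome, 55 were above 0 with a median of 0.08 and 0 called, and Mrpl13 (0.33), Mrpl16 (0.26) and Mrpl12 (0.25) had the smallest p-values. With the length and GC trend removed, the mitochondrial list had a median of 0.02, and 46 of 76 were above 0.

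Start regions of the members were searched for pyrimidine tracts and other short motifs. RefSeq windows from 250 bases before to 50 after the annotated start (GRCm38.p6) were found for 63 of the 84 members and 27025 genes in all. On the sense strand, CTCTTT was present in 34.9% of the members' windows and in 12.0% of all, and within the 50 bases after the start in 23.8% and 1.61%. CTTTCC, which overlaps it, was present in 34.9% and 14.0%. On either strand, the ETS-type motif CCGGAAG was present in 39.7% of the members' windows and 9.12% of all, and the GC box GGGCGG in 60.3% and 35.9%. TATAAA, on the sense strand, was present in 9.52% and 8.88%. A match describes letters and not a site in use. To show where a tract sits in X-linked parents and autosomal relatives, 30 bases around that nearest the annotated start are given on the sense strand, with the tract in capitals, from Rpl10 (plus strand, chrX:74270836-74270865), Rpl36a (plus strand, chrX:134585674-134585703), Rpl36al (minus strand, chr12:69184019-69184048) and Rpl39l (plus strand, chr16:10170210-10170239):
Rpl10: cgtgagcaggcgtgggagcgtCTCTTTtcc
Rpl36a: gctctagcctctCTCTTTCCgagctgctag
Rpl36al: ctctgttcgtccCTTTCCtgttcggcgcgt
Rpl39l: tagctcccaggcCTTTCCggatttccggtg
Counted from the annotated start, the tract begins at base 42 in Rpl10, 33 in Rpl36a, 32 in Rpl36al and -6 (before the start) in Rpl39l. None begins at the annotated start itself, so these tracts do not show that the messages begin with a TOP motif. Neither CTCTTT nor CTTTCC was present in the windows of Rpl10l, Rpl39, Rps4x, Rpl22l1 or Rpl41.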

How the data were processed

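The members and gene lists were chosen with earlier results of these data known. Per the submitters' processing notes, the authors used cutadapt 1.8, TopHat2 2.0.13 and Cuffdiff 2.2.1 with mm10. The sources used here do not give their annotation, strand setting or treatment of reads with several hits. The authors deposited, per the file headers, an estimated count of fragments and an FPKM for each gene and library. Counts were whole within 1e-06 for 98.8% of values, and fractional ones were rounded. Groups came from the labels. The edgeR 4.0.16 quasi-likelihood test (R 4.3.3, robust, TMM, filterByExpr) was fitted to 16658 genes and both groups, two-sided, with Benjamini-Hochberg adjustment, a threshold of 0.05 and a common coefficient of biological variation of 8.02%. It was tested on simulated data. DESeq2 1.42.0, limma 3.58.1, other scalings and filters, trends on length and GC content (loess span 0.5), a replicate block and leaving out each library were tried. Correlations of deviations between libraries of the same number were 0.10, -0.07 and 0.06, so numbers were not taken to pair mice. Within groups, libraries differed by 4.19 to 12.9 times counting noise (chi-square per degree of freedom), so none was a duplicate. Coordinates and transcripts come from GENCODE M21, to which all 84 symbols were matched. The planned search of the genome for shared windows was made in those transcripts, as no genome sequence was used. Named genes were all paralogues and parents, X-linked and P stalk genes, Rpsa, the 4 smallest p-values per subunit, the 3 highest and lowest levels, and the 3 smallest p-values in each other list. Some genes that this rule or these lists include are not reported by name here.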

Additional observations from a re-analysis of the deposited data

How the results depend on the processing

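No member was called, in either direction, under any scaling, filter, test or omitted library other than DESeq2 (10 higher) and the omission of inhibitor 3 (43 higher), so the calls with 1 library left out ranged from 0 to 43. The median log2 fold change ranged from 0.0641 to 0.21 with 1 library left out. The number of members above 0 was 49 with the length and GC trend removed, 49 with that and the replicate block, and 34 with the implied length trend removed, where the median was -0.0151. With the replicate block alone it was 76, the median was 0.12 and 0 members were called, and the block changed no other call.

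With the implied length trend removed, the signs turned for the medians of the large subunit (-0.0138), the small subunit (-0.0302) and the ribosome parts outside the rule (-0.0763), and for Rpl38 (-0.0910), Rpl41 (-0.0453), Rps20 (-0.00221), Rpl11 (-0.0127), Rplp2 (-0.15), Rplp1 (-0.17), Rps4x (-0.0425), Rpl36a (-0.15), Rpl39 (-0.0613) and Rpl3 (-0.0421). With the length and GC trend removed they turned for Rpl36a (-0.11), Rplp2 (-0.0127), Rpsa (-0.00215), Rps4x (-0.0726), Rpl3 (-0.00803), Rpl39 (-0.0258), Rpl7 (-0.0179) and Rplp1 (-0.0743), and with the replicate block added these stood at -0.11, -0.0120, -0.00248, -0.0684, -0.00822, -0.0211, -0.0180 and -0.0748 in the same order. With library totals alone Rpl3 was at -0.0124 and Rplp1 at -0.00127. With its copy added Rps27 was at 0.24. The median of the elongation and TOP list was 0.00902 without the 50 most abundant genes and 0.00885 with no filter. Rpl3l over Rpl3 was at 0.0359 with 0.1 added to each FPKM.

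With 1 library left out, the signs turned within these ranges: the elongation and TOP list -0.0228 to 0.0274, Rpl10 -0.13 to 0.0414, Rpl36a -0.0287 to 0.16, Rpl3 -0.0214 to 0.0554, Rpsa -0.00510 to 0.0778, Rpl36al over Rpl36a -0.00110 to 0.0889, and Rpl3l over Rpl3 -0.60 to 0.65. These are changes of sign among values that passed no test, and the cause was not tested. Depth limits Rpl3l, with 2 to 14 fragments per library. For members that share read-length windows with other transcripts, the placing of reads limits the values as well.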
